A study of Mus musculus with 104 samples.

Results

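Liver and heart of newborn C57BL/6 mice (C57BL/6J in the study's methods) were compared CpG by CpG at postnatal day 1 (P1). The comparison took every CpG listed at the same chromosome and base in the liver table and in the heart table that had at least 3 values in each tissue. This gave 41047 CpGs of the 91022 listed for liver, heart or muscle. The liver side held 4 libraries (replicates 1, 2, 3 and 5) and the heart side 4 libraries (replicates 2, 3, 4 and 5), all from untreated wild-type mice, in which no allele was altered. Methylation was measured by reduced representation bisulfite sequencing (RRBS), in which DNA cut by the enzyme MspI at CCGG is treated with bisulfite and sequenced, so that methylated cytosines stay C and unmethylated ones read as T. A methylation level is the share of reads of a CpG in a library that were methylated, here in percent. The series held 104 samples, 65 of them RRBS libraries. Used below, where they bear on the P1 differences, are liver libraries of E18 (shortly before birth), P5, P10, P15 and P20. Heart libraries of P5, P15 and P20 and libraries of skeletal muscle are used likewise.

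In mammals most CpGs are methylated, while promoters and enhancers that are in use in a cell type tend to lose methylation there, and each cell type therefore carries its own set of weakly methylated regulatory regions. The liver of a newborn mouse is made of immature hepatocytes together with blood-forming cells that settle there before birth and leave in the weeks after it, with endothelium and other cells. The newborn heart holds cardiomyocytes, which are finishing their last divisions, with fibroblasts, endothelium and smooth muscle. All libraries were made from whole tissue. A difference in the level of a CpG can therefore come from different shares of cell types or from different methylation within one cell type, and these cannot be told apart.

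At P1, 5531 of the 41047 CpGs differed between liver and heart, which is 13.5%, and the methylation was lower in heart at 3472 CpGs and lower in liver at 2059. A CpG was called where limma's p, adjusted by Benjamini and Hochberg's method, was 0.1 or less and the means differed by over 5 percentage points. Called CpGs of the muscle and cytoskeletal genes Pygm, Ip6k3, Ckm, Casq2 and Tns1 were lower in heart, and called CpGs of Afp, of the endothelial gene Cdh5 and of the blood cell genes Gpr56 and Slamf6 were lower in liver. In the list of hepatocyte genes as a whole, 14 of 84 CpGs tested were lower in heart and 5 lower in liver. In the blood list 26 of 185 were lower in heart and 12 lower in liver, and in the endothelial list 12 and 14 of 148. Over all CpGs the calls lower in heart were also more frequent, at 8.46% against 5.02% lower in liver. CpGs of the cytoskeletal genes Obsl1 and Tenc1 were lower in liver. The sequences of 10 of these regions are given here because they carry some of the largest single differences, a cluster among those with the most CpGs, or called CpGs of genes typical of one tissue. All are the plus strand of mm9, written 5′ to 3′, and capitals mark the CpGs that were called. The first 7 lie at chr19:6384609-6384710 (Pygm, coding exon), chr1:74006339-74006440 (Tns1, intron), chr17:27288029-27288130 (Ip6k3, coding exon), chr3:101903353-101903432 (Casq2, intron), chr7:19996166-19996328 (Ckm, promoter), chr4:107518814-107518970 (Lrp8, exon) and chr8:97508881-97508982 (Gpr56, intron). The others lie at chr1:173851145-173851246 (Slamf6, intron), chr5:90933886-90933974 (Afp, intron) and chr15:101937033-101937297 (Tenc1, intron and exon). The first 6 regions were less methylated in heart and the last 4 were less methylated in liver.
Pygm: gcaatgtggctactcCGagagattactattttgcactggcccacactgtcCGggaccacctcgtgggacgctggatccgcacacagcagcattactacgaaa
Tns1: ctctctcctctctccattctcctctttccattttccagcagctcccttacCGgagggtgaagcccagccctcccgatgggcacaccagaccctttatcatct
Ip6k3: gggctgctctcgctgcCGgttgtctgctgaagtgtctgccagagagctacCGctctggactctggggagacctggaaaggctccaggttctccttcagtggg
Casq2: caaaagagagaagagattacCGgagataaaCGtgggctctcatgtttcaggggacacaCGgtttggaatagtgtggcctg
Ckm: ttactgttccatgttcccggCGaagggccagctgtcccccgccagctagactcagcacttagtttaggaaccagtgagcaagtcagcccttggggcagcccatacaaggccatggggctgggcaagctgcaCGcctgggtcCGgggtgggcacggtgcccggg
Lrp8: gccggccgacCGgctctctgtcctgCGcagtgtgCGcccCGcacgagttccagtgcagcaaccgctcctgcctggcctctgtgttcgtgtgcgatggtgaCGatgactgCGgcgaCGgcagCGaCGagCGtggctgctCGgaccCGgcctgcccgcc
Gpr56: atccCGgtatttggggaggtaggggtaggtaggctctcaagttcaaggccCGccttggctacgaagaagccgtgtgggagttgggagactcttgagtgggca
Slamf6: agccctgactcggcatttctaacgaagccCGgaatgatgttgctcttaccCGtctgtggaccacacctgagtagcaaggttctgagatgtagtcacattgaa
Afp: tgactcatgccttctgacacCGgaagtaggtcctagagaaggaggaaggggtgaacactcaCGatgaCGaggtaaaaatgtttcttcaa
Tenc1: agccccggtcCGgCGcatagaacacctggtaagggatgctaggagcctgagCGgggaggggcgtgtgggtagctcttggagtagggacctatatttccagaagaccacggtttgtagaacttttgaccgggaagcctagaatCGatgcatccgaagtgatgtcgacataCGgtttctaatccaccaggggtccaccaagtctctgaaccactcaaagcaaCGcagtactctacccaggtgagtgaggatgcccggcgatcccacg

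Over the tested CpGs the correlation between libraries was 0.821 to 0.916 within liver, 0.853 to 0.888 within heart and 0.761 to 0.825 between the tissues. These are correlations across CpGs of one library with another and CpGs are not independent replicates. Each library had a value at 39149 or more of the CpGs, 1.68% of the values were missing, and 35759 CpGs had a value in all 8 libraries. At the 321 CpG dinucleotides measured on both strands, the strands differed by a median of 9.69 percentage points in liver and 11.9 in heart, which shows how coarse a single value is. The labels do not say that replicates came from separate litters or extractions, so p-values measure the spread between these libraries. CpGs below 10% in every sample of a tissue had been removed from that tissue's table, so a CpG that stays unmethylated in one tissue at all ages could not be compared. For example, 2255 CpGs listed only for liver lay within 20 bp of a CpG listed for heart, and their median level in P1 liver was 10.9%; for the 1300 CpGs listed only for heart, the median in P1 heart was 7.65%.

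The mean methylation of the tested CpGs was about the same in both tissues, but heart held more CpGs near both ends of the scale. The mean was 55.8% ± 1.47 in liver and 55.3% ± 0.618 in heart (SD, n = 4 each), so that heart minus liver came to -0.527 percentage points (two-sided exact permutation test over libraries, adjusted p = 0.543). Levels of 80% or more were reached by 25.6%, 23.9%, 26.4% and 26.8% of the CpGs in liver libraries 1, 2, 3 and 5, and by 31.6%, 32.8%, 31.4% and 33.0% in heart libraries 2, 3, 4 and 5. No liver library reached the lowest heart library. The difference was 6.57 percentage points (exact permutation test, p = 0.0286, the smallest that 4 against 4 libraries allow, adjusted p = 0.0429 over the 3 values per library). Levels of 20% or less were held by 18.1% ± 1.59 of the CpGs in liver and 22.7% ± 0.378 in heart, again without overlap (difference 4.56, exact permutation p = 0.0286, adjusted p = 0.0429). Correspondingly, 56.2% ± 1.98 of the CpGs lay between these limits in liver and 45.1% ± 0.570 in heart. The plot of the distribution of levels shows the peak of the liver libraries below that of the heart libraries. Values of exactly 100% made up 4.12% to 8.27% of a heart library and 0.0731% to 4.52% of a liver library; such values are more frequent where fewer reads cover a CpG, the reads behind single values are unknown here, and their part in the difference was not tested.

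**Figure D1:**
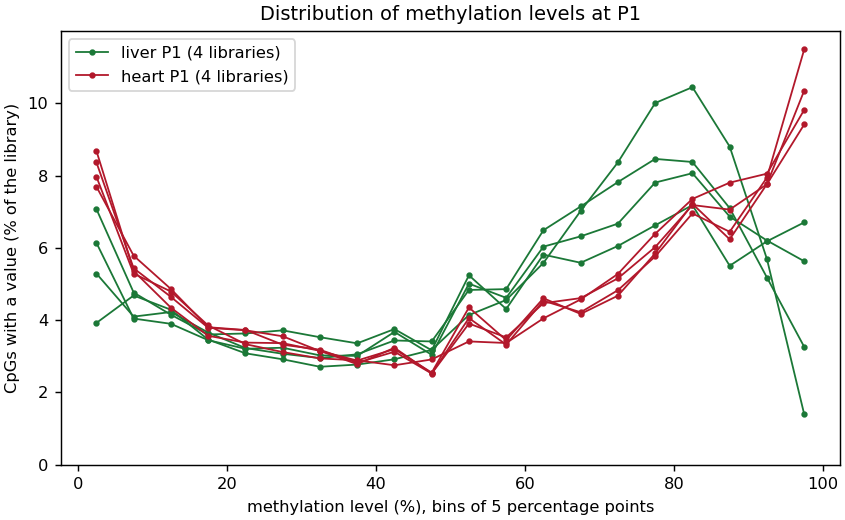
Distribution of methylation levels in the 8 P1 libraries: the x axis gives the methylation level in bins of 5 percentage points and the y axis the share of the CpGs with a value in that library, 1 line per library. The 4 heart lines lie above the 4 liver lines in the lowest and in the highest bins, and the liver lines peak in the bins around 80%.

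The share of strongly methylated CpGs was higher at the later ages in liver and about level in heart; these ages are given as a description, with no test. At 80% or more lay 20.8% ± 4.16 of the CpGs in E18 liver (n = 4), 25.7% ± 1.26 in P1 liver and 31.8% ± 4.28 in P5 liver (n = 4). The share was 39.7% ± 3.19 in the 3 livers of P10, between 37.3% and 42.6% in the 3 of P15 and 39.3% ± 2.62 in the 5 of P20. In heart it was 32.2% ± 0.836 at P1, 30.4% ± 3.11 at P5 (n = 4), 34.0% ± 2.25 at P15 (n = 5) and 34.0% ± 2.63 at P20 (n = 5). The mean share was lower in liver than in heart at P1 and higher in liver at P5, by less than its SD, and at P15 and P20.

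The CpGs lower in heart and those lower in liver had different levels. Of the 41047 CpGs, 8.46% were called lower in heart and 5.02% lower in liver, so 37.2% of the calls were lower in liver (95% exact binomial interval 36.0 to 38.5, which covers counting only and treats CpGs as independent). At the CpGs lower in heart, the median level was 20.0% in heart and 58.5% in liver, and 50% of them (1736) were at 20% or less in heart. In liver 88.4% of these CpGs lay between 20% and 80%. At the CpGs lower in liver, the median level was 50.7% in liver and 80.5% in heart. Only 18.6% of them (384) were at 20% or less in liver, while 50.9% were at 80% or more in heart. Differences over 30 percentage points were seen at 2706 called CpGs, 6.59% of those tested, and 2037 of these were lower in heart and 669 lower in liver. Differences over 50 points were seen at 312 CpGs lower in heart and 64 lower in liver. Over all tested CpGs the median difference, heart minus liver, was 1.09 percentage points. Of the called CpGs with all 8 values, the liver and heart libraries did not overlap at 83.2% of those lower in heart and 83.7% of those lower in liver, against 4.34% of the CpGs that were not called. The calls were made on these same libraries, so this contrast follows largely from the call.

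**Figure D2:**
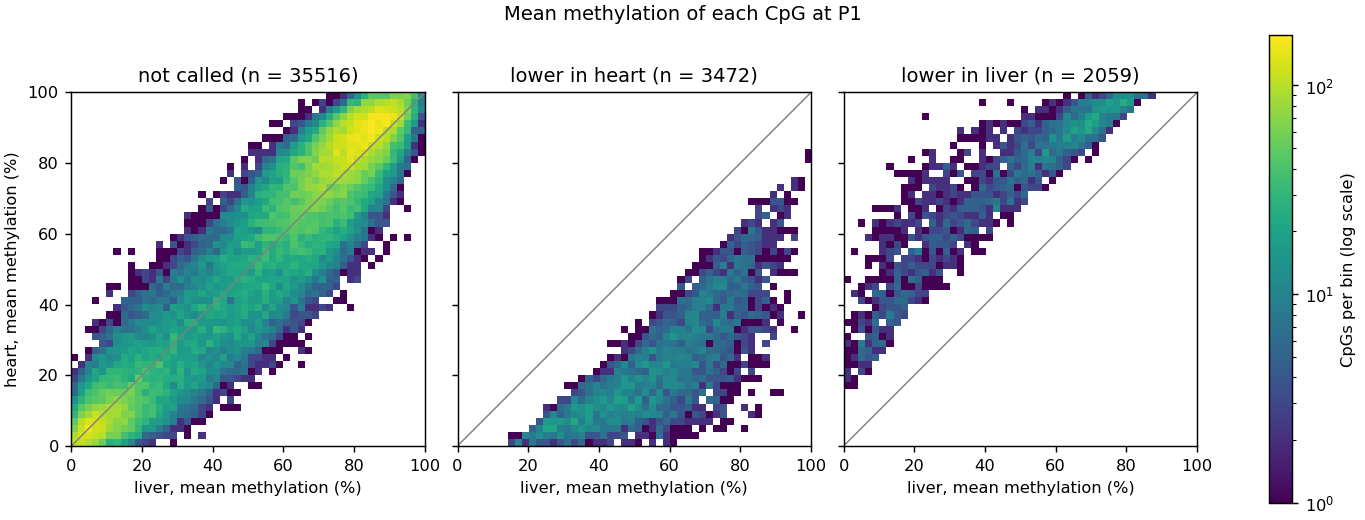
Mean methylation in P1 liver (x axis, percent) against P1 heart (y axis, percent) for CpGs not called, lower in heart and lower in liver, with the number of CpGs in each bin as color on a log scale and the line of equal levels in gray. CpGs lower in heart lie below the line, with a median of 58.5% in liver and 20.0% in heart, and CpGs lower in liver lie above it, with medians of 50.7% and 80.5%.

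Introns held more calls than exons and promoters. In introns 10.3% of the 13810 CpGs were lower in heart and 5.75% lower in liver, in exons (7965 CpGs) 7.68% and 3.87%, in intergenic sequence (16371) 7.31% and 5.22%, and within 1 kb upstream of a transcript start (2802) 8.42% and 3.60%. The share called was highest, at 16.1%, with 6 to 10 CpGs within 200 bases to either side and was 13.1% with 11 to 20. With more than 30 CpGs, 5.79% were lower in heart and 1.85% lower in liver, while with 1 to 5 CpGs the shares were 6.27% and 6.05%. On the X chromosome 6 of 233 CpGs were called, 2.58%, and the sexes of the pups are not given in the labels. Because neighboring CpGs of one MspI fragment share reads, the comparison was repeated on 4518 clusters of at least 3 CpGs with neighbors at most 100 bp apart. Of these clusters 24.3% (1097) differed, 643 lower in heart and 454 lower in liver.

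Among the autosomal calls with all 8 values and non-overlapping libraries, the largest difference was in the muscle glycogen phosphorylase gene Pygm (chr19:6384660), in coding sequence 261 bp from the transcription start. Its levels were 80%, 80.8%, 76.3% and 100% in the liver libraries and 11.1%, 0%, 15.6% and 9.59% in the heart libraries. The difference was -75.2 ± 6.38 percentage points (SE, limma adjusted p = 0.000613). A CpG in an intron of Tns1 (chr1:74006390), which codes for an actin-binding protein of focal adhesions, had 83.3%, 90.2%, 93.8% and 90.9% in liver and 15.4%, 18.8%, 17.6% and 9.68% in heart, a difference of -74.2 ± 4.83 (limma adjusted p = 0.000506). In both genes the liver libraries lay far above the heart libraries, with no value between.

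Ip6k3, a muscle-expressed inositol hexakisphosphate kinase, had a coding CpG (chr17:27288079) at 72.7%, 80%, 77.9% and 70.6% in liver and at 3.70%, 0%, 13.5% and 10.0% in heart. Its difference was -68.5 ± 5.12 percentage points (limma adjusted p = 0.000521). A CpG in an intron of Rara, the retinoic acid receptor alpha gene (chr11:98832680), had a mean of 76.0% ± 17.8 in liver and 8.15% ± 5.99 in heart. Introns of Pdzd2 (chr15:12432009), of Arhgef2 (chr3:88433917) and of the actin-binding adapter gene Afap1l1 had differences of -71.4, -70.1 and -69.4. An intron of the plasma membrane calcium pump gene Atp2b1 (chr10:98430167) had a mean of 85.5% in liver and 18.1% in heart. The remaining CpGs among the 10 with the largest differences were intergenic (chr2:166259086, 277923 bp from the start of Sulf2, -73.8) and in an exon shared by 4930404N11Rik and F630110N24Rik (chr10:80827491, -67.6).

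On the other side, the largest difference was in an intron of Gpr56 (chr8:97508931), 428 bp from a transcription start. This gene codes for an adhesion receptor found on blood stem cells among other cells. Its levels were 27.8%, 30.1%, 21.1% and 9.68% in liver and 75%, 100%, 100% and 94.4% in heart. The difference was 70.2 ± 7.10 percentage points (limma adjusted p = 0.000861). Slamf6, a receptor of lymphocytes, had an intronic CpG (chr1:173851195) at 9.68%, 27.1%, 20.23% and 18.03% in liver and 89.2%, 64.3%, 76.9% and 94.3% in heart, a difference of 62.4 ± 7.16 (limma adjusted p = 0.00119). The lymphocyte ligand gene Tnfsf14 had a CpG in its first exon (chr17:57333556) with means of 13.9% and 78.9%. A CpG 94547 bp from the start of Runx3, a transcription factor gene of lymphocytes (chr4:134582020), had 16.7%, 19.4%, 19.5% and 16.7% in liver and 73.9%, 77.3%, 89.5% and 70.5% in heart. At all 4 of these CpGs the highest liver library was more than 30 points below the lowest heart library, which their choice for large differences without overlap favors.

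The cytoskeletal adapter gene Obsl1 had a CpG upstream of one of its transcripts (chr1:75483829) at 3.23%, 3.39%, 2.26% and 8.0% in liver and at 69.2%, 72.0%, 44.2% and 68.8% in heart. The others with the largest differences lay near Lrpprc (chr17:85259516, 60.1), near Nav2 (chr7:56495986, 58.2), near Gm10260 (chr13:98329728, 57.6), in an exon of Abtb2 (chr2:103557480, 57.2) and in an intron of Gm16724 (chr17:71482606, 55.9). These 20 CpGs were the 10 largest in each direction, with at most 1 per gene, among the autosomal calls with all 8 values whose libraries did not overlap, which numbered 2538 lower in heart and 1536 lower in liver.

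Clusters differed in how many of their CpGs were called one by one. An exon of Lrp8, a receptor for reelin and apolipoprotein E, held a cluster of 13 CpGs of which 12 were called (chr4:107518824-107518959). Its mean was 28.9%, 39.7%, 40.01% and 53.1% in the liver libraries and 6.14%, 8.94%, 8.85% and 4.48% in the heart libraries, a difference of -33.3 ± 4.80 percentage points (limma adjusted p = 0.000876 over clusters). The promoter cluster of C530008M17Rik (chr5:77287019-77287159, 12 CpGs, 10 called) had means of 41.6% ± 12.5 and 7.19% ± 3.75. In an intron of Catsperg1 (chr7:29997749-29998083, 16 CpGs, 5 called) the means were 35.8% and 16.6%, and in an exon of Lactbl1 (chr4:136193239-136193489, 12 CpGs, 1 called) 21.9% and 11.02%. In these 4 clusters, which had the most CpGs of those lower in heart, no heart library reached a liver library. The same held for 81.5% of all clusters called lower in heart and 5.23% of those not called, a contrast that the call on these libraries favors.

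Of the clusters lower in liver, that of Tenc1, which codes for a tensin of focal adhesions, differed most among the 4 with the most CpGs. Its 10 CpGs (chr15:101937043-101937286), 6 of them called, had a mean of 10.6%, 19.9%, 13.9% and 8.92% in liver and of 28.8%, 41.1%, 45.3% and 46.4% in heart, a difference of 27.1 ± 4.59 percentage points (limma adjusted p = 0.00221 over clusters). The ephrin ligand gene Efna2 (chr10:79649481-79649602, 9 CpGs, 2 called) had means of 19.4% and 33.6%, an exon of Wscd2 (chr5:114000808-114001120, 15 CpGs, 1 called) 16.4% and 30.2%, and a region 71898 bp from Nkx1-1 (chr5:33848523-33848703, 8 CpGs, 2 called) 35.1% and 54.9%. The libraries of the tissues did not overlap in any of the 4, although 1 heart library had too few values at Efna2. Of all clusters called lower in liver, 73.6% had no overlap, which the call on these libraries favors.

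Genes typical of cardiomyocytes carried calls in both directions. In the gene bodies and up to 5 kb upstream of 35 measured genes of this list, 169 CpGs were tested, 27 were lower in heart and 11 lower in liver, together 22.5% against 13.5% over all CpGs. The median difference was 0.66 percentage points, against 1.09 over all CpGs. Ckm, the muscle creatine kinase, had 4 of 7 CpGs lower in heart, 3 of them 135 to 257 bp from its transcription start and shown in the sequence above. Over its called CpGs the liver libraries had 71.5%, 68.8%, 61.9% and 59.4% and the heart libraries 10.9%, 27.6%, 25.1% and 26.1%. Casq2, which codes for the calcium-binding calsequestrin of the cardiac sarcoplasmic reticulum, had 3 of 4 CpGs lower in heart. Its 3 called CpGs, all intronic, had a mean of 48.6%, 30.2%, 41.6% and 33.3% in liver and of 0%, 10.6%, 13.2% and 10.7% in heart. The 3 called CpGs of Ldb3, a Z-disc protein gene, had means of 66.9% in liver and 35.4% in heart, and the calcium channel gene Cacna1c had 5 CpGs lower in heart and 2 lower in liver of 20.

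Further genes of the cardiomyocyte list, with and without calls, are given here and were chosen after their values were seen. Lower in heart were the only tested CpGs of Mb (myoglobin, -44.4 percentage points), Xirp1 (-42.1), Tnni3 (cardiac troponin I, -37.9) and Tpm1 (tropomyosin, -34.0), 1 of 3 CpGs of Tnnc1, 2 of 16 of the splicing factor gene Rbm20, 1 of 6 of Zfpm2, a cofactor of GATA factors, and 2 of 2 of the muscle cytochrome oxidase subunit gene Cox6a2. Lower in liver were 3 of 15 CpGs of Tbx3, 1 of 10 of Tbx5, 1 of 3 of Hand1 and the only one of Myocd (20.97). Ttn (titin) had 2 of 14 lower in liver and 1 lower in heart. Gata6 had 1 of 7 lower in heart, and none was called of the 4 CpGs of Nkx2-5 or the 3 of Gata4. In all, 12 genes of the list had calls only lower in heart, 5 only lower in liver and 2 in both directions.

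In the hepatocyte list, 24 of 76 genes were measured at 84 CpGs, 14 lower in heart and 5 lower in liver (22.6% called against 13.5% over all CpGs, 12 calls on the logit scale, median difference 1.08). Albumin had no tested CpG. Afp, the alpha-fetoprotein gene that fetal hepatocytes transcribe strongly, had all 3 of its CpGs lower in liver. Their mean was 10.37%, 12.7%, 10.1% and 10.9% in the liver libraries and 45.2%, 48.0%, 52.2% and 53.1% in the heart libraries. The largest of the 3 differences was 48.9 ± 4.90 percentage points (chr5:90933947, limma adjusted p = 0.000861). The only tested CpG of Dlk1, a gene of fetal hepatoblasts that is also imprinted, was lower in liver as well (48.1% and 86.5%). Other hepatocyte genes went the other way. Trf (transferrin) had 5 of 8 CpGs lower in heart and 1 lower in liver, Foxa3 had 3 of 12 lower in heart (62.1% in liver and 38.9% in heart over them) and the serine dehydratase gene Sds had 2 of 4 (40.4% and 9.33%). Hnf4a had 1 of 4 CpGs lower in heart, and none was called of the 4 of Foxa1 or the 4 of Foxa2. The lists thus did not split cleanly by tissue, although Afp was low in the libraries labelled liver and Ckm, Casq2 and Mb in those labelled heart, and methylation at a gene is no measure of its expression.

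Blood and erythroid genes had 185 CpGs tested, with 26 lower in heart and 12 lower in liver (20.5% called against 13.5% over all CpGs, 23 calls on the logit scale, median difference -2.12). Runx3 had 8 of 21 CpGs lower in heart and 1 lower in liver, and the mean over these was 38.8%, 33.6%, 37.3% and 41.8% in liver and 12.96%, 13%, 19.5% and 10.7% in heart. The T cell kinase gene Zap70 had 5 of 9 lower in heart (79.0% and 49.6%), and the B cell factor gene Ebf1 4 of 10 lower in heart and 1 lower in liver. Lower in liver were 2 of 2 CpGs of Ikzf2, the only CpG of the B cell receptor gene Cd79b (28.5), 1 of 3 of the platelet gene Gp1bb and 1 of 4 of Vav1, which were chosen after their values were seen. The 4 CpGs of the erythroid gene Rhd and the only one of Slc4a1 (band 3) were not called, and 1 of 9 of the red cell ankyrin gene Ank1 was lower in heart (-50.9). Of the 16 blood genes with a call, 9 had calls only lower in heart, 4 only lower in liver and 3 in both directions.

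Of the endothelial list, 14 of 148 CpGs were lower in liver (9.46%, against 5.02% over all CpGs) and 12 lower in heart (8.11%, against 8.46%). Cdh5, which codes for VE-cadherin, had both of its tested CpGs, 1842 and 1871 bp from the transcription start, lower in liver. The mean over them was 3.33%, 23.4%, 18.1% and 19.9% in liver and 76.2%, 58.3%, 57.9% and 43.5% in heart. The endothelin-converting enzyme gene Ece1 had 4 of 10 CpGs lower in liver, all in an intron (chr4:137422023-137422144), with means of 11.6%, 17.0%, 14.99% and 16.1% in liver and 45.8%, 44.6%, 46.4% and 54.2% in heart. Erg, a transcription factor gene of endothelium and blood stem cells that both lists hold, had 5 of 15 CpGs lower in liver and 1 lower in heart, and Pecam1 had 2 of 6 lower in liver. The thromboxane receptor gene Tbxa2r went the other way, with 3 of 17 lower in heart (44.8% and 11.99%), as did 2 of 4 CpGs of Dll4 and 2 of 6 of Notch4. None of the 9 CpGs of Vwf, the 10 of Flt4 or the 7 of Nos3 was called. Ikzf2, Pecam1, Dll4, Notch4, Vwf, Flt4 and Nos3 were picked out after their values were seen.

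Among fibroblast and smooth muscle genes (121 CpGs, 16 lower in heart and 4 lower in liver, 16.5% called against 13.5% over all CpGs, 13 calls on the logit scale, median difference 2.51), the growth factor gene Tgfb1 had 8 of 11 CpGs lower in heart, all 8 exonic. Their mean was 39.4%, 56.5%, 56.7% and 58.5% in liver and 10.2%, 28.0%, 15% and 27.4% in heart. The collagen gene Col5a1 had 2 of 7 lower in heart (67.6% and 13.1%), while both CpGs of Acta2 (smooth muscle actin) were lower in liver (66.3% and 87.5%). Skeletal muscle genes had 10 of 63 CpGs lower in heart and 1 lower in liver (17.5% called, 6 calls on the logit scale, median difference -2.44), 4 of the 10 in Ckm, which is also on the cardiomyocyte list. Pax7, a gene of muscle stem cells, had 2 of 5 (27.9% and 4.23%), and the only tested CpG of the slow skeletal troponin gene Tnnt1, the same CpG as that of the neighboring Tnni3, was at 40.6% and 2.70%. Cacng1 had its only CpG lower in heart.

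In the HOX clusters 9 of 91 CpGs were called (9.89%, against 13.5% over all CpGs), all lower in heart, where the share over all CpGs was 8.46%, and 8 of these were assigned to Hoxa3 (of 21 tested), with 41.3% in liver and 11.3% in heart over the called CpGs; Hoxa6 shares 2 of them and Hoxa5 1, and the other call is shared by Hoxd3 and Hoxd4. Of 307 CpGs of Polycomb-linked patterning factors 18 were lower in heart and 8 lower in liver (8.47%). Gata3 had 6 lower in heart and 3 lower in liver of 15, Pax2 4 of 9 lower in heart (58.9% and 21.4%) and Hlx 4 of 10 (38.4% and 10.0%), whereas Tbx1, a factor of the pharyngeal and cardiac outflow region, had 3 of 7 lower in liver (15.7% and 44.0%). Imprinted genes had the lowest share of the lists, with 8 of 183 CpGs called (4.37%). They were the 3 CpGs of Rian (45.0% and 17.6%) and 2 of H13 lower in heart, and 2 of Trappc9 and the one of Dlk1 lower in liver.

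In genes of the Wnt, Notch, Hedgehog, BMP and TGF-beta pathways, 38 of 302 CpGs were called (12.6% against 13.5% over all CpGs, or 22 on the logit scale). Lower in heart were 27 (8.94%, against 8.46% over all CpGs) and lower in liver 11 (3.64%, against 5.02%). The share called was thus near that over all CpGs, and 8 of the 27 are the Tgfb1 CpGs described above. Axin2, a target and brake of Wnt signaling, had 3 of 5 lower in heart (61.6% and 20.6%), the ligand gene Wnt5b had 3 of 4 (38.5% and 8.82%), and Maml3, a Notch coactivator, had 3 of 28 lower in liver and 2 lower in heart. Genes of the DNA methylation machinery had only 28 tested CpGs, 9 lower in heart and 1 lower in liver (35.7% against 13.5% over all CpGs). Of the 9, 7 were in 1 exon of Mbd2, a reader of methylated DNA, with 81.9%, 80.2%, 82.6% and 61.9% in liver and 22.8%, 24.8%, 54.6% and 26.4% in heart. Also lower in heart was 1 CpG each of Zbtb38 (57.9% and 4.45%) and Uhrf2 (30.4% and 5.92%), and 1 CpG of the de novo methyltransferase gene Dnmt3a was lower in liver (62.2% and 80.1%). CpGs of one exon share reads, so the 7 of Mbd2 are not 7 separate events. The plot of calls by gene list sets all 11 lists side by side.

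**Figure D3:**
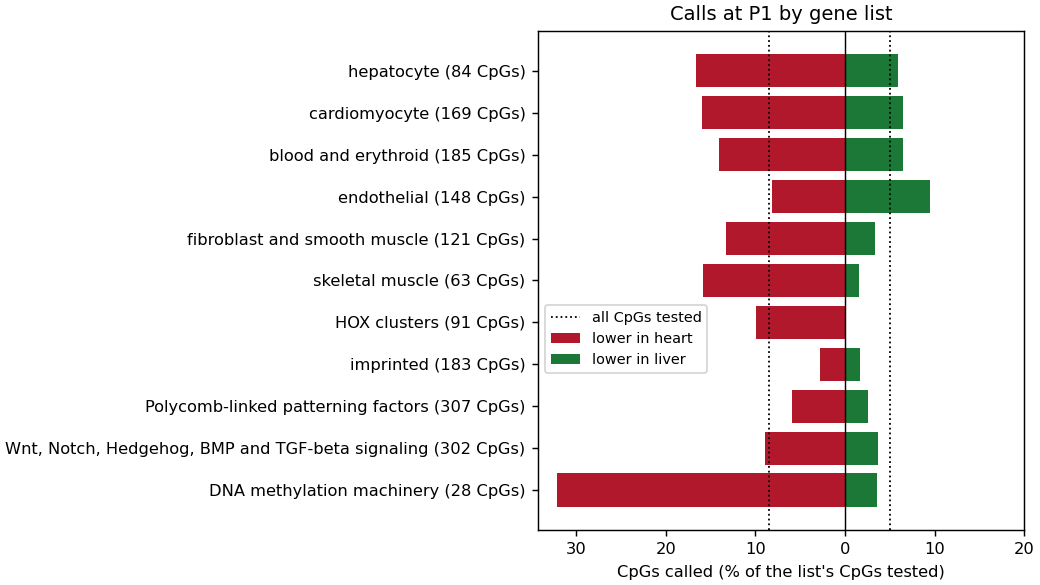
Share of the tested CpGs of each gene list that were called lower in heart (bars to the left) or lower in liver (bars to the right), in percent, with dotted lines at the shares over all CpGs tested (8.46% and 5.02%). The endothelial list extends farthest to the right, the HOX clusters have no bar to the right, and the bars of the imprinted and the Polycomb-linked lists lie inside both lines.

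Of 8122 genes with a tested CpG, 2217 had a call and 192 had calls in both directions. In all, 5 or more CpGs were lower in heart in 91 genes and lower in liver in 20. The genes with 10 or more calls in a direction are given here because of that number, so they were chosen after their values were seen. Sh2b3, which codes for an adapter that restrains cytokine signals in blood-forming cells, had 14 of 15 exonic CpGs lower in heart (chr5:122278656-122278938). Their mean was 63.4%, 72.6%, 70.8% and 52.8% in liver and 34.1%, 29.3%, 22.3% and 20.0% in heart. Cpt1b, the muscle form of the enzyme that carries fatty acids into mitochondria, shares its 11 called CpGs of 16 with the overlapping Chkb (chr15:89249623-89256948), with 59.0%, 45.1%, 58.4% and 64.0% in liver and 22.7%, 18.52%, 31.0% and 17.6% in heart. Of these, 10 are also assigned to C730034F03Rik. Prdm16, a transcription factor gene, had 11 of 47 CpGs lower in heart, all intronic, with means of 50.4% and 20.3%. Kalrn had 10 of 24 lower in heart and 2 lower in liver, 2700081O15Rik had 11 of 13 lower in heart, and C530008M17Rik (13 of 23) and Lrp8 (12 of 15), whose clusters are described above, also belong here.

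In the other direction, Plekhh3 had 15 of 17 CpGs lower in liver (chr11:101025493-101026938), 12 of them exonic and 3 in a promoter. Their mean was 18.7%, 18.7%, 27.6% and 7.26% in liver and 53.1%, 58.5%, 57.6% and 63.7% in heart. The only other annotation with 10 or more was Gm20388, a long gene model that spans several others, with 19 lower in liver and 24 lower in heart of 358.

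**Figure D4:**
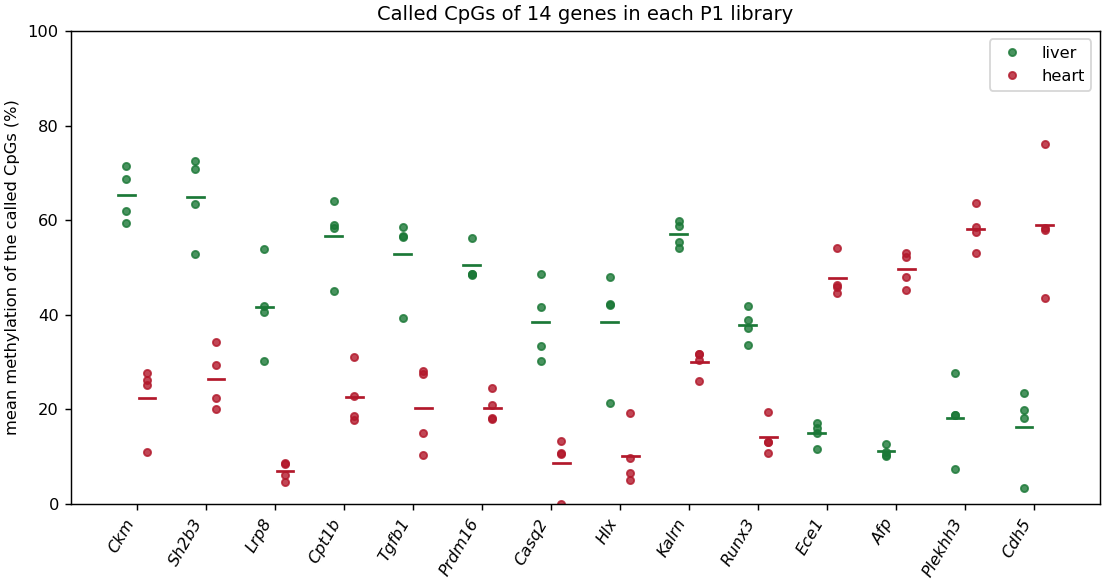
Mean methylation of the called CpGs of 14 genes in each P1 library (y axis, percent), with 1 point per library and a bar at the tissue mean. In each of these genes all 4 liver libraries lie on one side of all 4 heart libraries, which the choice of called CpGs favors.

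At later ages the direction of the P1 difference was found again at most CpGs lower in heart and, by P20, at about as many CpGs lower in liver as among CpGs not called. These shares are described with no test between the sets. The CpGs not called pool both signs. Their median difference, heart minus liver, moved from 1.55 percentage points at P1 to -2.20 at P20. Their share is therefore no exact reference for either direction. Libraries of P5 and P20 took no part in the choice of the CpGs. At P5, 5.75% of 40983 CpGs were called, 2001 lower in heart and 357 lower in liver. Heart was lower than liver at 94.8% of the 3461 CpGs called lower in heart at P1 that could be tested. Of these, 1194 (34.5%) passed the test in that direction. Of the 2039 CpGs called lower in liver at P1, 76.9% kept the direction and 185 (9.07%) passed. For CpGs not called at P1, 60.2% had the same sign and 2.45% passed with it. At P20, 6.49% of 34267 CpGs were called, 1705 lower in heart and 519 lower in liver. The direction was the same at 83.0% of 2844 CpGs lower in heart at P1, with 616 (21.7%) past the test, and at 51.1% of 1710 CpGs lower in liver, with 127 (7.43%) past the test, against 54.3% and 3.29% of the CpGs not called. Past the test in the opposite direction were 14 of the CpGs lower in heart at P1, 57 of those lower in liver and 428 of those not called. On the logit scale, only 0 of the P1 calls at P5 and 9 at P20 passed with the same sign, against 1379 and 743 on the percent scale, so the counts past the test hold on the percent scale only.

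**Figure D5:**
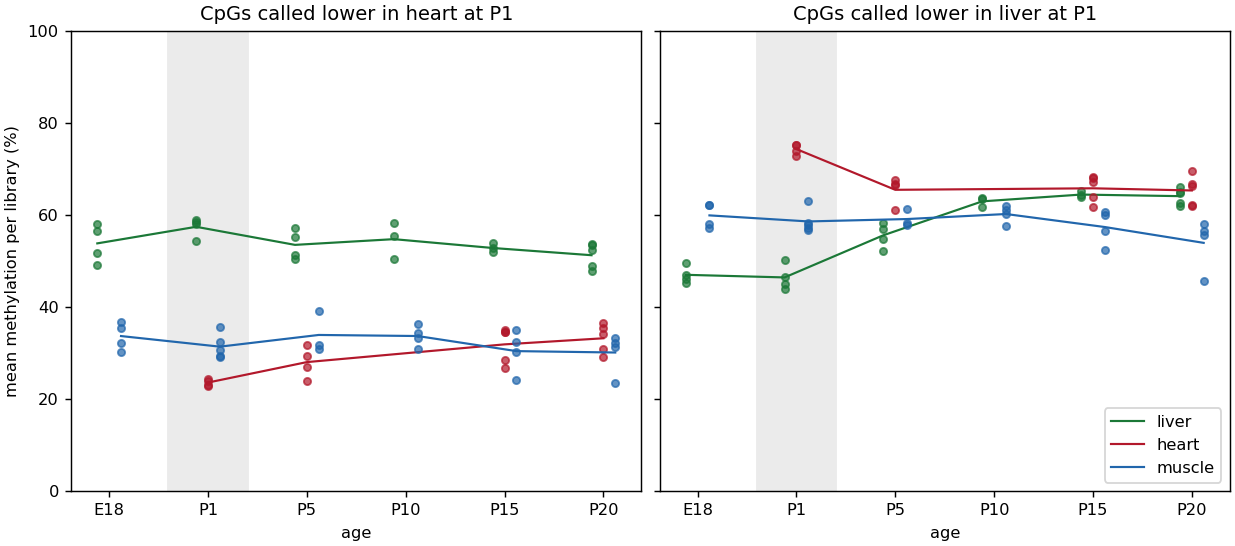
Mean methylation over the CpGs called lower in heart at P1 (left) and lower in liver at P1 (right) in each library of liver, heart and muscle by age, with 1 point per library and lines through the means. Heart libraries of E18 and P10, which the paper reports, have no sample in the series and are not shown. Muscle values cover the called CpGs in its table, and the gray band marks the libraries that chose the CpGs. On the left the liver points stay above the heart and muscle points at all ages, and on the right the liver points rise between P1 and P10 to the level of heart.

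The mean over the CpGs lower in heart at P1 was 57.4% in liver and 23.5% in heart at that age, a gap that the choice of CpGs enlarges. In libraries that did not choose them, it was 53.8% ± 4.09 in E18 liver, 53.5% ± 3.17 in liver and 28.0% ± 3.38 in heart at P5, and 51.3% ± 2.74 in liver and 33.2% ± 3.08 in heart at P20. No liver library overlapped a heart library at P5 or P20. In muscle, at the 2559 of these CpGs in its table, the mean was 31.4% ± 2.72 at P1 (n = 5) and between 30.1% and 33.9% at the other ages, nearer to heart than to liver. For the CpGs lower in liver, E18 livers had a mean of 47.0% ± 1.88 and P1 livers one of 46.4%. The mean of P5 livers was 55.6% ± 2.70, that of P10 livers 63.0% ± 1.07 and that of P20 livers 64.1% ± 1.77. In heart the mean was 74.4% at P1, 65.5% ± 2.99 at P5 and 65.3% ± 3.27 at P20. Muscle, over 1447 of these CpGs, had 58.6% ± 2.54 at P1, where liver had 43.8% and heart 71.9% over the same CpGs, and 53.9% ± 5.63 at P20, below the 61.8% of liver and the 63.2% of heart.

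Methylation in liver rose with age at many of the CpGs lower in liver at P1. Between E18 and P20 in liver, in libraries that did not choose the CpGs, 12% of 39465 CpGs rose and 2.61% fell (limma, same limits). Of the CpGs lower in liver at P1, 698 of 1992 (35.04%) rose and 58 fell. Of the CpGs lower in heart, 148 of 3300 (4.48%) rose and 376 (11.4%) fell. The median change was 17.5 percentage points for the CpGs lower in liver, -0.56 for those lower in heart and 7.81 over all. The share of rises among the CpGs lower in liver was 2.81 to 4.43 times that over all CpGs when the scale, the limit or the libraries were changed, although the count ranged from 289 to 685 with a library left out and was 320 on the logit scale.

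The difference between the tissues itself changed from P1 to P20 at 1292 of 34108 CpGs (3.79%, limma interaction of tissue and age). It fell, in the sense of heart minus liver, at 846 CpGs and rose at 446. Among the CpGs lower in liver at P1 it fell at 407 and rose at 12, and among those lower in heart it rose at 295 and fell at 3; the P1 libraries that chose these CpGs enter this fit, so these directions are a description. The count was 217 on the logit scale and as low as 610 with 1 library left out (heart P20 replicate 1). From P1 to P5 it changed at 0% of 40793 CpGs, with 2885 at an unadjusted p under 0.05, and none on the logit scale.

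Single CpGs lower in liver differed in their course. The Gpr56 CpG was at 17.7% in E18 liver, 40.2% at P5 and 80.5% ± 7.002 at P20 (n = 4), when heart was at 67.4% ± 7.50 (n = 3). The Slamf6 CpG went from 14.1% at E18 to 61.3% at P20, that near Runx3 from 13.8% to 64.5%, and the Tenc1 cluster from 12.5% to 40.03% (heart 38.6% at P20). The first 3 did not pass the test between the tissues at P20. The 15 called CpGs of Plekhh3 had means of 23.8% at E18, 44.1% at P5 and 75.8% ± 2.74 at P20 in liver. In contrast, Tnfsf14 was at 20.3% in liver and 68.5% in heart at P20, and Obsl1 at 14.3% and 52.1%. Both were called lower in liver at that age (limma adjusted p = 0.0360 and 0.00443), but not at P5 (limma adjusted p = 0.251 and 0.108). At Afp the called CpGs had reached 36.2%, 41.1% and 42.7% in P20 liver, while the 4 called CpGs of Ece1 were between 9.03% and 14.3%.

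Of the CpGs lower in heart, Pdzd2 (69.7% in liver and 12.2% in heart), Rara (47.4% and 6.97%) and the exon shared by 4930404N11Rik and F630110N24Rik (70.2% and 9.11%) were called at P20 as well, as were the CpG near Sulf2 and that of Afap1l1. Among these, Rara and Afap1l1 were not called at P5 (limma adjusted p = 0.159 and 0.264). Pygm and Tns1 were called at P5, with 31.6% and 33.8% in heart, and had too few values at P20 to test. At Atp2b1 heart had reached 73.3% at P20 against 89.4% in liver, which did not pass the test, nor did Ip6k3 (54.0% in liver and 35.1% in heart) or Arhgef2 (78.7% and 35.1%). At P5, Atp2b1, Ip6k3 and Arhgef2 were called (limma adjusted p = 0.0355, 0.0283 and 0.0827). The called CpGs of Casq2 were at 23.3%, 21.9% and 13.4% in P20 heart and at 71.3%, 42.1% and 39.8% in P20 liver.

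Short sequence patterns differed in frequency around the called CpGs. A set of 7 strings known from transcription factors was searched on both strands in the 101 bases centered on each of 40627 CpG dinucleotides; a match is a description of the sequence and not a bound site, and neighboring windows overlap. AGATAA, read by GATA factors, was found in 3.62% of all windows, 6.60% of those lower in heart and 2.64% of those lower in liver. The E-box CAGCTG, read by factors of muscle among others, was found in 6.77%, 10.0% and 5.77%, and CATTCC, the MCAT element of TEAD factors, in 5.66%, 8.77% and 5.72%. GAGGAA, which ETS factors read, was found in 9.57% of all windows, 8.89% of those lower in heart and 13.8% of those lower in liver, and the forkhead string TGTTTAC in 1.01%, 0.984% and 1.96%. With a single window per kb the order was the same for AGATAA (6.39% lower in heart, 2.75% lower in liver, 3.92% not called), for CAGCTG and for CATTCC, and for GAGGAA (13.9% lower in liver, 9.98% not called), and TGTTTAC was in 1.13%, 1.94% and 1.11%.

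The AP-1 string TGANTCA was in 2.33%, 2.90% and 2.64% of the windows. The HNF4 string CAAAGTCCA was in 33 windows of all (0.0812%), 6 of them lower in liver (0.293% of that set) and 2 lower in heart (0.0579%). These counts are too small to compare. In the printed sequences, AGATAA begins at base 24 of the Casq2 region, CAGCTG at base 29 of the Ckm region, GAGGAA at base 42 of the Afp region, TGANTCA at its first base, and CATTCC, on the minus strand, at base 31 of the Slamf6 region.

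Locus-specific bisulfite sequencing (LSBS), which reads single loci amplified by PCR after bisulfite treatment, was available for liver and covered 3 of the tested CpGs, read on the opposite strand of the dinucleotide. Both intergenic CpGs at chr10:117336769 and chr10:117336779, about 53779 bp from Rap1b, were lower in liver by RRBS, with 8.41% ± 4.24 and 9.11% ± 7.19 in liver and 41.0% ± 16.2 and 36.9% ± 13.03 in heart (limma adjusted p = 0.0254 and 0.0360). By LSBS the P1 livers had 11.4% ± 2.25 and 12.3% ± 1.47. The CpG at chr19:23211054, 4661 bp from Klf9, was not called and had 4.89% ± 3.82 in liver by RRBS and 21.7% ± 2.90 by LSBS.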

How the data were processed

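The authors deposited, for each CpG and library, the fraction of covering reads that were methylated, without further normalization. The authors aligned the RRBS reads to mm9 with Bismark 0.7.6 and Bowtie2, set CpGs with fewer than 10 reads to missing, and removed, tissue by tissue, CpGs lacking a value in over 20% of samples or staying below 10% in all of them. The reads behind single values are unknown, so no binomial intervals on levels were computed, and the number of libraries limits the precision. Fractions were multiplied by 100. In the tables, 22 columns with no matching sample were not used.

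Each CpG with at least 3 values per tissue was fitted in limma 3.58.1 (R 4.3.3), with Benjamini-Hochberg adjustment over all CpGs tested. Cluster means needed values at a share of at least 0.5 of the CpGs. Later ages, the change of the difference and liver P20 against E18 were fitted likewise. Exact permutation tests (scipy 1.17.1) compared values given once per library. An unmoderated test with q-values, which the study's methods name for the LSBS data, was run as an alternative. Genes came from an mm9 annotation, a promoter being 1 kb upstream of a transcript start and a gene reaching 5 kb upstream. Sequences were read from mm9 with pysam 0.24.0, and every tested position on a chromosome of the reference was a CpG there (99 positions lay on sequences not used here). The named CpGs were the 10 largest non-overlapping differences in each direction, the named clusters the 4 with the most CpGs in each direction, and the list genes up to 4 per list with the most calls. Others are marked in the text, except Hnf4a, Foxa1, Foxa2, Rhd, Slc4a1 and Ank1, which were also named outside this rule. The members and the gene lists were chosen with earlier results of these data known. The procedure was tested on simulated data. Alternatives covered the test, scale, normalization, limits, missing values, strands, libraries, build and replicate block. LSBS fractions, deposited by the authors for liver, were used only at CpGs tested here.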

Additional observations from a re-analysis of the deposited data

Results flagged for a closer look

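Among 99 groups of 4 to 10 libraries, 8 held 1 library far from the others by Dixon's criterion, while chance gives such a library in about 1 of 20 groups. Among the heart P1 libraries, the CpG in Afap1l1 had a highest value of 29.4% where the next was 6.90%. The CpG in the exon shared by 4930404N11Rik and F630110N24Rik had a lowest heart value of 0% with 6.98% next to it, and a lowest liver value of 66.7% with 75% next to it. The Atp2b1 CpG had a lowest heart value of 0% (next 23.5%), and the Obsl1 CpG a lowest heart value of 44.2% (next 68.8%). Over the called CpGs of Prdm16, 1 liver library was highest at 56.1% (next 48.7%). The mean over the CpGs lower in heart was lowest at 54.3% in liver P1 replicate 1 (next 58.1%), and the mean over the CpGs lower in liver was lowest at 61.1% in 1 heart P5 library (next 66.6%). The named CpGs were chosen for libraries that did not overlap between the tissues.

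The difference between liver and heart itself changed from P1 to P20 at 1292 CpGs by the limma interaction test, as given above. Leaving out 1 library at a time gave 610 to 1275 such CpGs; the count was 610 without heart P20 replicate 1, 637 without heart P20 replicate 2, 662 without heart P20 replicate 3 and 837 without liver P20 replicate 3.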

How the results depend on the processing

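All 20 named CpGs kept their direction and their call under each alternative that could be run for them; the fit with muscle held 12 of them, and mm10 positions were not matched to them. The number of called CpGs was 3625 at an adjusted p of at most 0.05, 2706 over 30 percentage points, and 3932 to 5348 without 1 library. It stayed within 1.5 times the main count otherwise, with 3285 of 3873 calls on the logit scale shared with the main calls. The share of calls lower in liver was 42.0% with an unmoderated test and Storey q-values, 38.7% on the logit scale, 39.8% on the arcsine scale, 43.8% after quantile normalization, 24.7% over 30 points, 31.5% at 0.05, 35.4% with muscle in the fit, 33.6% with all ages in the fit and 33.0% to 37.8% without 1 library. Called clusters numbered 276 over 30 points and 891 to 1082 without 1 library. The liver and heart numbers 2, 3 and 5 did not pair the libraries (correlation of deviations 0.020, 0.012 and -0.00038), and the replicate block gave 3744 calls with 29.4% lower in liver and 921 clusters, against 4571, 33.6% and 977 in the same 6 libraries without it. The difference in mean methylation turned to 0.0333 without liver replicate 3 (range -1.16 to 0.0333). The differences in the shares at 80% or more (5.99 to 6.94) and at 20% or less (4.02 to 5.28) kept their direction without 1 library. They had an adjusted p of 0.0857 by the exact permutation test without any 1 heart library, where 3 against 4 libraries limit the p. P1 calls past the test with the same sign were 0 at P5 and 9 at P20 on the logit scale, 461 at P20 over 30 points, and 1084 to 1378 at P5 and 563 to 724 at P20 without 1 P1 library. On the logit scale the calls of the hepatocyte list were 12, of blood 23, of fibroblast and smooth muscle 13, of skeletal muscle 6 and of the signaling list 22. The alternatives for changes with age were chosen after seeing the data: CpGs lower in liver that rose from E18 to P20 were 320 on the logit scale, 458 over 30 points and 289 to 685 without 1 library, where fewer CpGs could be tested, and the changed difference from P1 to P20 was called at 217 CpGs on the logit scale and at 610 to 1275 without 1 library. Except as stated above, the cause of these shifts was not tested.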
